A study of Mus musculus with 50 samples.

Results

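Ppargc1a, Pdk4, Ppard, Tfam, Mef2a and Cs are 6 genes of muscle metabolism whose promoters have been described elsewhere as losing DNA methylation after a bout of exercise. Their methylation was examined in mouse soleus at rest and at 10, 30 and 60 min after treadmill running. The members were the CpGs that the deposited table assigns to the promoter or the gene body of one of these genes by its Ensembl identifier. Of the 6 genes, 3 had such a CpG (Mef2a, Tfam and Cs) and 3 had none (Ppargc1a, Pdk4 and Ppard). The 3 measured genes held 34 of the 205304 CpGs in the table, which covers 13722 gene identifiers. Of these 34 CpGs, 27 lay in a promoter, 19 in a gene body and 12 in both.

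A methyl group on the cytosine of a CpG is added by DNA methyltransferases, and DNMT3A, the product of Dnmt3a, is one that acts on DNA not yet methylated. Dense methylation of a CpG-rich promoter generally goes with a silent gene, while promoters of genes that most tissues use are usually free of it and gene bodies usually carry it. Ppargc1a encodes PGC-1α, a coactivator that switches on mitochondrial and oxidative genes and that is itself induced in muscle by exercise. PGC-1α works with nuclear receptors such as the product of Ppard, and among the genes that follow its activity are Tfam and Pdk4. The product of Tfam packages mitochondrial DNA and helps to start its transcription. That of Pdk4 inactivates pyruvate dehydrogenase and spares glucose. Mef2a encodes a transcription factor of muscle genes, and Cs encodes citrate synthase, the enzyme that opens the citric acid cycle.

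The mice were C57BL/6 males and females, 12 weeks old. All carried Dnmt3a alleles in which loxP sites flank exon 19. Mice with these alleles alone were wild type (WT), and mice that also had 1 copy of mCK-Cre, a Cre driven by the muscle creatine kinase promoter, were muscle-specific knockouts (mD3AKO, written KO in the plots). This promoter is active late in muscle differentiation, so satellite cells and other cell types of the muscle may keep Dnmt3a, which was not tested here. Mice ran for 30 min and were killed 10, 30 or 60 min later, and mice at rest were placed on a treadmill that did not run. From rest to 60 min the 4 groups held 5, 5, 5 and 6 WT muscles and 5, 5, 7 and 6 mD3AKO muscles. Each value is one muscle, and the level of a bulk sample averages all its nuclei, so a change in cell mix and a change within cells cannot be told apart.

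Reduced representation bisulfite sequencing (RRBS) reads DNA cut with MspI, at CCGG, after bisulfite has turned unmethylated cytosines into thymines. A call is one read of a CpG as methylated or unmethylated, and a methylation level is the percentage of methylated calls. The table held 12819404 to 41285655 calls per sample, with a median coverage of 48 to 163 reads per CpG. Samples 1 to 25 were all at rest or at 60 min and samples 26 to 50 at 10 or 30 min, so 10 and 30 min against rest cannot be told apart from the set of sample numbers, whereas 60 min against rest and 30 against 10 min lie within a set. RRBS did not read the deletion itself. At 500 clusters outside these genes, chosen for each sample without its own values, samples were placed on a scale with the mean of WT at 0 and that of mD3AKO at 1. WT samples lay between -0.111 and 0.463 and mD3AKO samples between 0.569 and 1.24, so no sample lay nearer to the other genotype.

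The sequences of the measured CpGs are given first, since they show which stretch of each gene the levels describe. All were taken from RefSeq on GRCm38 (mm10), are printed on the strand of the gene, and have the measured CpGs in capitals. The 15 CpGs of the Mef2a promoter lay 57 to 611 bp upstream of the transcription start, on 5 MspI fragments of 68 to 147 bp (chromosome 7, 67372915 to 67373469). The 300 bases of the promoter at chr7:67372809-67373108 hold 10 of them.
Mef2a: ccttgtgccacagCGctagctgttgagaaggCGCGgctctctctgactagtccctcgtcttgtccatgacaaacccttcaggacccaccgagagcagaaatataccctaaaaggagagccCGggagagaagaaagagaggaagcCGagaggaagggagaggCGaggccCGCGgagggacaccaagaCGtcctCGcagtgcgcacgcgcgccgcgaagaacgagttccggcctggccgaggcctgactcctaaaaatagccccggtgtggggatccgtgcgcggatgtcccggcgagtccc

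The promoter of Tfam was represented by 3 CpGs in an intron, 571 to 583 bp downstream of the gene's start and 19 to 31 bp upstream of the start of a shorter transcript of the gene. They shared 1 fragment of 130 bp (chr10:71237677-71237729, minus strand).
Tfam promoter CpGs: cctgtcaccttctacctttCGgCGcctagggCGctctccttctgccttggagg
The other 7 CpGs of Tfam formed a cluster inside the gene, in an intron 8286 to 8461 bp from the start (chr10:71229811-71230002, minus strand), and are called the inner cluster here.
Tfam inner cluster: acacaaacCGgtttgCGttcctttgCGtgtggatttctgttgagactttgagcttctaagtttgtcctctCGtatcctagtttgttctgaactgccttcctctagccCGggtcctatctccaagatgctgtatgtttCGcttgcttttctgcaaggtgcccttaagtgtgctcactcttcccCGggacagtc
The 9 CpGs of Cs lay 314 to 407 bp downstream of the start, on 1 fragment of 92 bp (chr10:128338038-128338151, plus strand). They fell in an intron of the coding transcripts that is an exon of a non-coding one, and the table counts them in the promoter and in the gene body alike.
Cs promoter CpGs: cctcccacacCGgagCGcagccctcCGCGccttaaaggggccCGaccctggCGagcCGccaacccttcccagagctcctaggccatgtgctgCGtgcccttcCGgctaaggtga

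The other 3 genes are those with the fewest cut sites in the promoter window, though not in the gene body. A promoter here runs from 3000 bp upstream to 1000 bp downstream of a start. That window held 1 CCGG in Ppargc1a (percentile 6.97 of the promoters of protein-coding genes), 2 in Pdk4 (percentile 14.5) and 7 in Ppard (percentile 42.9). It held 10 in Tfam, 19 in Cs and 26 in Mef2a. Since the assay reads only DNA next to these sites, the 300 bases around the starts of Ppargc1a (chr5:51567676-51567975, minus strand) and Pdk4 (chr6:5496229-5496528, minus strand) are shown with CCGG in capitals.
Ppargc1a: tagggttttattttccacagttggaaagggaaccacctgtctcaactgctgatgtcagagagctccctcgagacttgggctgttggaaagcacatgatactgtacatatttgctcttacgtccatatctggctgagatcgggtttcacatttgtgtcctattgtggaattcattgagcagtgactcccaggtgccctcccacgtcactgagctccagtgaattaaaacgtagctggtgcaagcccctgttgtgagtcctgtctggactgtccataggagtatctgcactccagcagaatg
Pdk4: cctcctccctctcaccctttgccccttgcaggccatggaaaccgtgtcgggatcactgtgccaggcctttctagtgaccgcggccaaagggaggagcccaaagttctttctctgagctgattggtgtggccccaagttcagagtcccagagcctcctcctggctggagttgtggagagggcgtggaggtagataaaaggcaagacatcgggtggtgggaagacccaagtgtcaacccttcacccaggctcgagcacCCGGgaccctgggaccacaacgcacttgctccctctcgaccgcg
The stretch of Ppargc1a held no CCGG and 5 CpGs, and that of Pdk4 held 1 CCGG and 12 CpGs. Ppargc1a also has a shorter transcript whose start lies inside the gene and outside the promoter window used here. The 300 bases around that start (chr5:51553873-51554172, minus strand) held 1 CCGG and 3 CpGs, none of them measured. The site count and percentile of Ppargc1a describe the upstream start only. CCGG, which reads the same on both strands, was present in 52.6% of the 27025 RefSeq promoters of this length. The nearest measured CpG lay 102852 bp from Ppargc1a, 8201 bp upstream of Pdk4 and 8721 bp from Ppard. Their gene bodies held 37 (Ppargc1a), 9 (Pdk4) and 126 (Ppard) CCGG, and that of Mef2a 72, with no measured CpG in any of the 4. The levels of Ppargc1a, Pdk4 and Ppard were therefore not measured, in either genotype or at any time.

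Across the 20807 promoters of protein-coding genes in the annotation, 46.8% had a measured CpG. The share was 6.29% among promoters with fewer than 5 CCGG, 58.8% with 5 to 14, 80.7% with 15 to 29 and 90.2% with 30 or more. Ppargc1a and Pdk4 thus fell in the class with the lowest share, and Ppard was among the unmeasured promoters of its class. Of all these genes, 34.2% had no measured CpG in promoter or body.

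**Figure D1:**
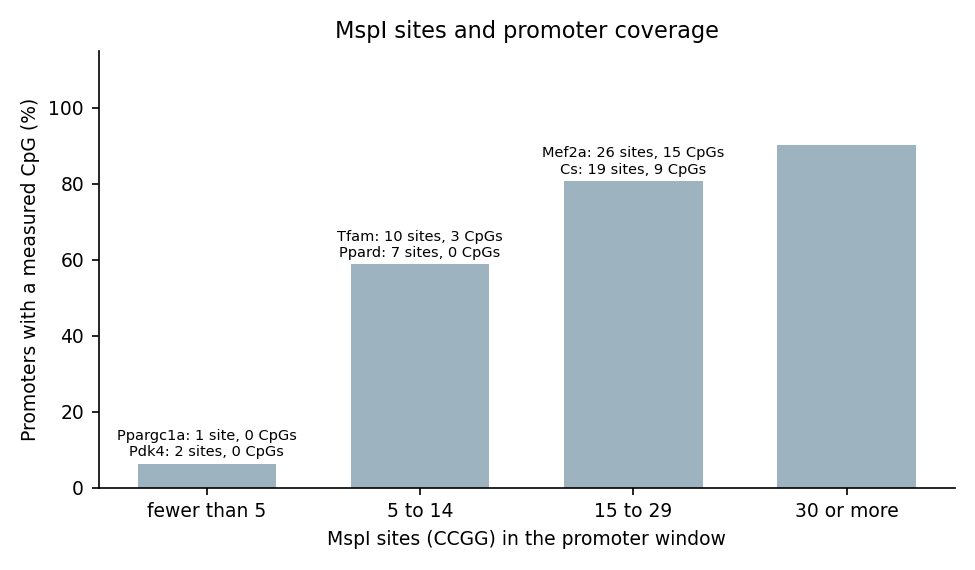
Percentage of promoters with a measured CpG (bars, vertical axis from 0) by the number of MspI sites (CCGG) in the promoter window (horizontal axis, 4 classes), with the 6 genes written above their class. The share rises from 6.29% to 90.2%, and Ppargc1a and Pdk4 lie in the lowest class.

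The measured promoters were nearly free of methylation at every time. The mean level over the 44 samples was 0.509% in Mef2a, 0.589% in Tfam and 0.597% in Cs. These lay at percentiles 23.6, 33.2 and 34.0 of 9761 promoters, whose median was 0.793% and of which 58.5% lay under 1%. The methylated calls were few, 427 of 84662 in Mef2a, 48 of 7823 in Tfam and 240 of 41993 in Cs. No methylated call was seen in 9 samples for Mef2a, 33 for Tfam and 12 for Cs. A fall after exercise could not exceed the level at rest, which in WT was 0.360% in Mef2a, 0.408% in Tfam and 1.24% in Cs.

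In the Mef2a promoter, the WT samples at rest were at 0%, 0.0750%, 0.282%, 0.466% and 0.977%. At 10 min they were at 0%, 0.0670%, 0.140%, 0.390% and 2.27%, and at 30 min at 0.411%, 0.663%, 0.777%, 0.866% and 1.71%. At 60 min the lowest was 0.127%, the median 0.213% and the highest 1.68%. The 30 min samples were the only WT group of Mef2a with no sample under 0.4%, yet they overlapped with rest. The mean was 0.360% ± 0.390 (SD, n = 5) at rest and 0.885% ± 0.490 (SD, n = 5) at 30 min, a difference of 0.524 percentage points (SE 0.280, exact permutation test, two-sided, p = 0.0952). At 10 min the difference from rest was 0.213 points (exact p = 0.825) and at 60 min it was 0.149 points (exact p = 0.690).

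The mD3AKO samples at rest were at 0%, 0%, 0%, 0.570% and 1.43% in Mef2a, and at 10 min at 0%, 0.261%, 0.291%, 0.714% and 1.24%. At 30 min they ran from 0.0359% over a median of 0.729% to 0.874%, and at 60 min from 0% over 0.108% to 1.52%. Every group overlapped with rest. The differences from rest were 0.101, 0.109 and -0.0396 points at 10, 30 and 60 min (exact p = 0.778, 0.696 and 0.913). The samples at 0% had 1168 to 2821 calls, which allow a level of up to 0.257% and 0.106%. These limits and the intervals below cover counting error only. PCR copies of a molecule were not told apart. Unmethylated cytosines that bisulfite left unconverted would read as methylated, and their share was not examined.

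In the Tfam promoter, 4 of 5 WT samples at rest were at 0% and 1 was at 2.04%, and at 10 min 4 were at 0% and 1 at 0.478%. At 30 min the samples were at 0%, 0%, 0.905%, 5.10% and 13.0%. At 60 min 4 of 6 were at 0% and the others at 0.296% and 0.781%. Samples 32 and 38 at 30 min stood far above all other samples. Sample 32 had 13 methylated calls of 255 and sample 38 had 21 of 162. In each of them all methylated calls fell on 1 CpG, and not on the same one: the CpG at 71237709 reached 15.3% and the CpG at 71237706 reached 38.9%, both highest values over all samples. The mean at 30 min was 3.79% ± 5.54 (SD, n = 5), a difference of 3.39 points from 0.408% ± 0.913 (SD, n = 5) at rest that was within the spread (SE 2.51, exact p = 0.286).

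Of the mD3AKO samples, those at rest were at 0%, 0%, 0%, 1.11% and 1.19% in the Tfam promoter. At 10 min 1 of 5 samples (0.522%) and at 30 min 1 of 7 (0.546%) had a methylated call. At 60 min no sample had one, 0 of 720 calls over the group, which allows a level of up to 0.417%. Both groups at rest and all later groups overlapped at 0%. The mD3AKO means differed from rest by -0.356, -0.382 and -0.460 points at 10, 30 and 60 min (exact p = 0.444, 0.311 and 0.182). With 3 of 5 samples at rest at 0%, even a fall to 0% in all samples could not have given a p under 0.05. These p-values therefore do not decide whether the level fell. Coverage was lowest in this stretch: the samples at 0% had 27 to 320 calls, which allow levels of up to 11.1% and 0.938%.

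In Cs, the WT samples at rest were at 0.171%, 0.434%, 0.440%, 1.27% and 3.86%, and at 10 min at 0%, 0.140%, 1.13%, 1.52% and 1.72%. At 30 min they were at 0%, 0%, 0%, 0.153% and 1.01%. At 60 min they ran from 0% over a median of 0.223% to 3.24%. No WT sample at rest was at 0% and 3 of 5 at 30 min were, but the sample at 1.01% lay above 3 of the 5 samples at rest. The mean was 1.24% ± 1.52 (SD, n = 5) at rest and 0.232% ± 0.438 (SD, n = 5) at 30 min, a difference of -1.0 points (SE 0.709, exact p = 0.151). At 10 and 60 min the differences were -0.332 and -0.566 points (exact p = 0.730 and 0.465).

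Rest was the tightest mD3AKO group in Cs, with samples at 0.234%, 0.480%, 0.595%, 0.647% and 0.853%. At 10 min the samples were at 0%, 0%, 0.214%, 0.279% and 1.05%. At 30 min they ran from 0% over 0.213% to 0.957%, and at 60 min from 0% over 0.184% to 2.52%. At each time 1 or more samples lay above the highest at rest. The difference from rest was -0.253 points at 10 min (exact p = 0.254), -0.311 points at 30 min (SE 0.160, exact p = 0.0985) and 0.151 points at 60 min (exact p = 0.788). These values rest on single samples. Without sample 43, the highest at 30 min, the difference at 30 min was -0.428 points (exact p = 0.00433), without sample 39 that at 10 min was -0.438 points (exact p = 0.0238), and in WT without sample 9 that at 60 min was -1.08 points (exact p = 0.0397). Without WT sample 20 at rest the Mef2a difference at 30 min was 0.679 points (exact p = 0.0238). These p-values are not adjusted, and each of the samples left out is an extreme of its group.

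**Figure D2:**
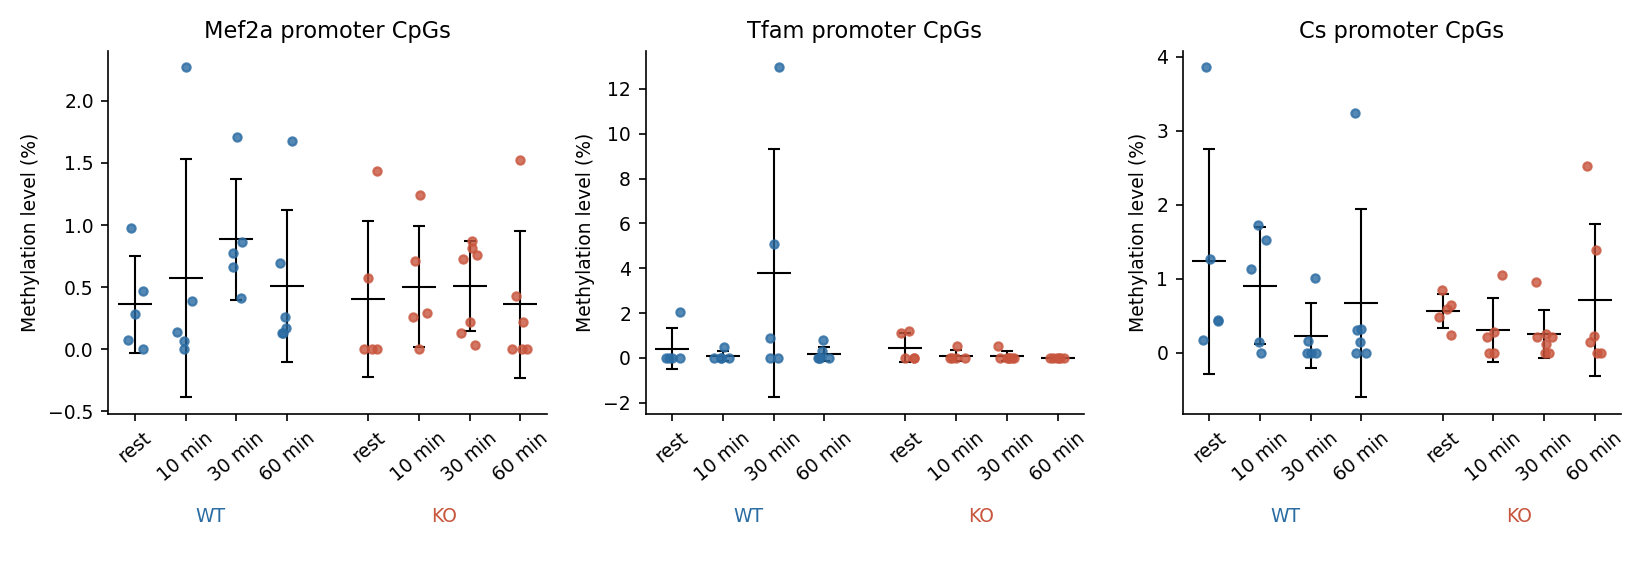
Methylation level (vertical axes, %, different scales) of the promoter CpGs of Mef2a, Tfam and Cs at rest and 10, 30 and 60 min after exercise, for WT (blue) and KO (red). Points are samples, and the bars give the mean and SD; most samples lie under 1%, and in Tfam a pair of WT samples at 30 min lies at 5.10% and 13.0%.

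In these promoters 1 CpG often gave most of the methylated calls of a sample. Over the samples with a methylated call, the median share of the leading CpG was 86.7% in Mef2a, 100% in Tfam and 82.3% in Cs. Of the 35 samples with a methylated call in Mef2a, 12 had them on 1 CpG only, as did all 11 such samples in Tfam and 11 of 32 in Cs. A sample with a single methylated call can have it on 1 CpG only, so such samples raise these counts and shares. The 5 samples with most methylated calls gave 39.6% of those in Mef2a, 85.4% in Tfam and 48.8% in Cs. Over the WT samples the mean level of a single CpG ran from 0% to 2.58% in Mef2a, from 0% to 2.16% in Tfam and from 0% to 2.93% in Cs. Over the mD3AKO samples it ran to 1.09%, 0.367% and 1.29%. The Mef2a CpG at 67373077 had no methylated call in any of the 44 samples.

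**Figure D3:**
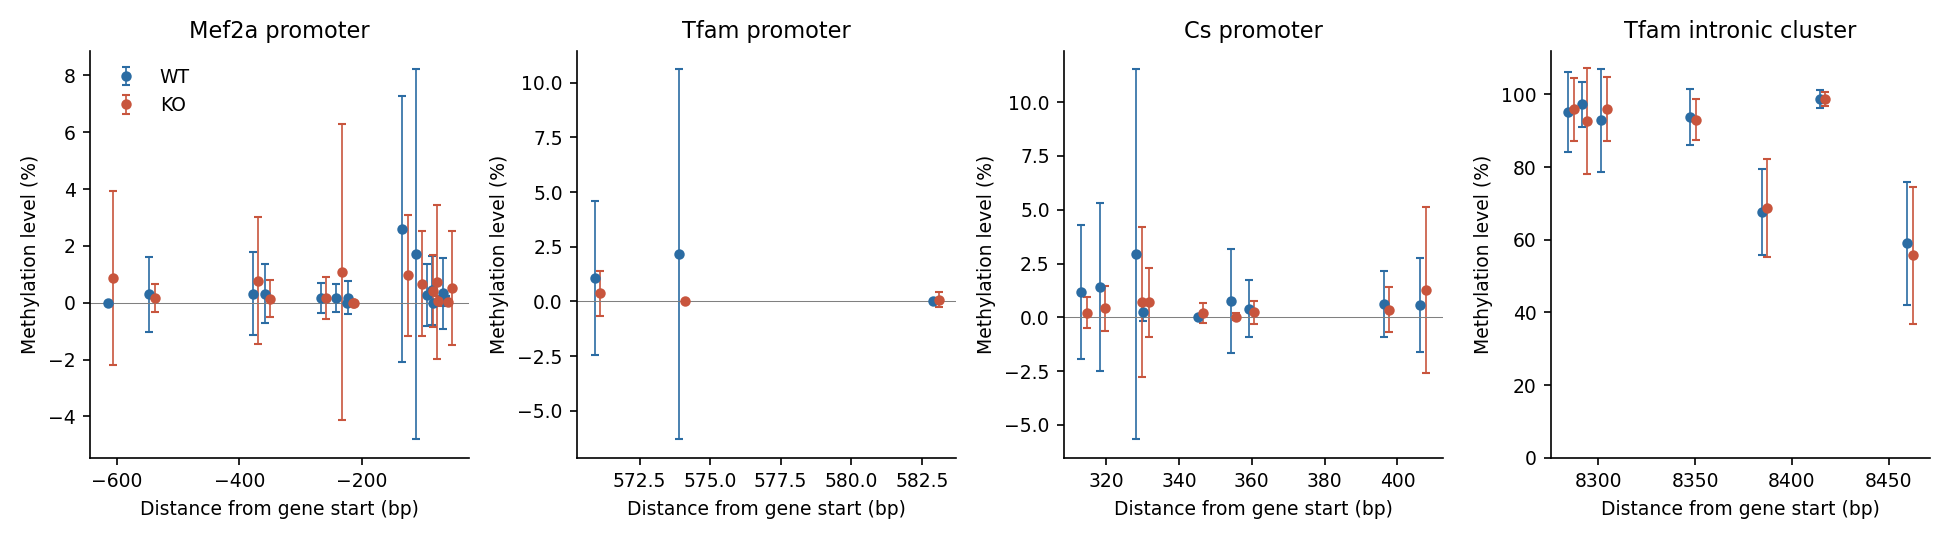
Mean methylation level of each measured CpG (vertical axes, %; bars SD over 21 WT and 23 KO samples) against its distance from the gene start (horizontal axes, bp; negative is upstream). The promoter CpGs of Mef2a, Tfam and Cs have means under 3%, and those of the inner cluster of Tfam lie between 55.7% and 98.7%.

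The inner cluster of Tfam was, by contrast with these promoters, a methylated region. Its level was 82.0% ± 4.73 (SD, n = 44), at percentile 75.9 of 51038 clusters, whose median was 50.8%. Its 7 CpGs were unlike: the CpG at 71229819 had 59.0% in WT and 55.7% in mD3AKO, and the CpG at 71229864, 45 bp away on the same fragment, had 98.7% in each.

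By sample, the inner cluster of the WT samples was at 71.8%, 77.3%, 78.4%, 91.4% and 97.4% at rest, and at 79.0%, 80.1%, 82.5%, 83.9% and 84.2% at 10 min. At 30 min it was at 77.5%, 79.5%, 79.9%, 80.4% and 82.0%, and at 60 min it ran from 78.1% over 82.7% to 84.8%. Rest held both the lowest and the highest of the WT samples. The differences from 83.3% ± 10.7 (SD, n = 5) at rest were -1.35, -3.39 and -1.42 points (exact p = 0.778, 0.508 and 0.747).

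For mD3AKO the inner cluster was at 77.6%, 78.4%, 79.0%, 84.97% and 88.9% at rest and at 73.8%, 77.1%, 83.0%, 84.2% and 84.5% at 10 min. It ran from 74.4% over 86.2% to 89.2% at 30 min and from 79.5% over 82.9% to 84.6% at 60 min. All groups overlapped. The differences from 81.8% ± 4.95 (SD, n = 5) at rest were -1.28, 1.95 and 0.704 points (exact p = 0.690, 0.518 and 0.762).

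**Figure D4:**
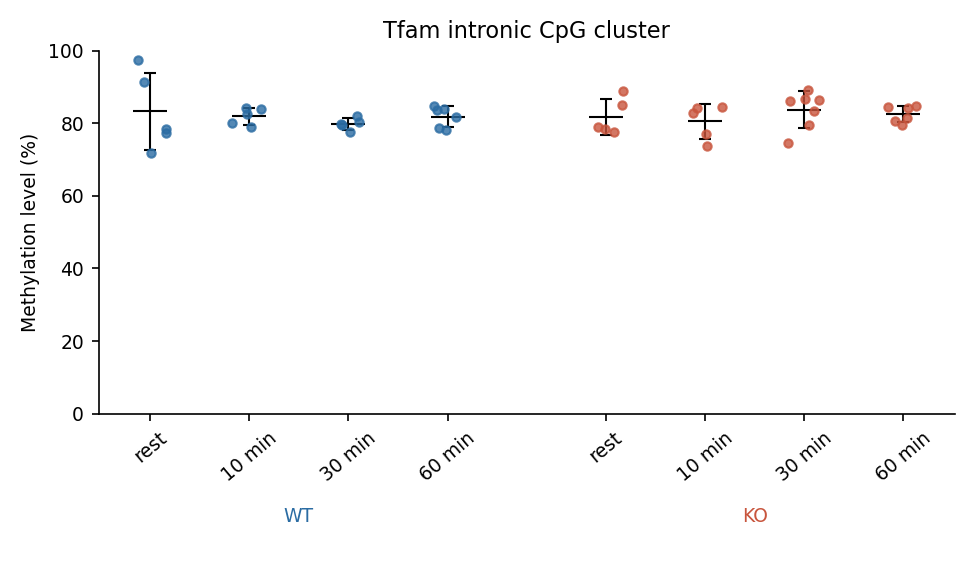
Methylation level (vertical axis, %, from 0 to 100) of the inner cluster of 7 CpGs in Tfam at rest and 10, 30 and 60 min after exercise in WT (blue) and KO (red). Points are samples and the bars give the mean and SD; all samples lie between 71.8% and 97.4%, and the groups overlap.

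The gene body of Tfam as the table defines it joins this cluster with the 3 nearly unmethylated promoter CpGs. Its level over 10 CpGs was therefore lower, 66.6% ± 7.96 (SD, n = 44), and moved with the share of calls from each. In mD3AKO it was 72.5% ± 7.60 (SD, n = 5) at rest and 63.0% ± 12.3 (SD, n = 5) at 10 min, a difference of -9.56 points (SE 6.45, exact p = 0.183), while the inner cluster differed by -1.28 points. The promoter CpGs gave 11.3% and 11.9% of the calls of that gene body in mD3AKO at rest and 60 min, but 21.4% and 19.7% at 10 and 30 min. In the WT groups they gave 19.0% to 21.9%, and in single samples 3.98% to 38.6%. The promoter and the inner cluster are therefore given apart here. The 9 CpGs of Cs are its whole measured gene body, and Mef2a had no measured CpG in its body.

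Over Mef2a, Tfam and Cs, 24 differences between a time after exercise and rest were computed, 18 in promoters and 6 in the inner cluster. The later time was lower in 11 of the 18 in promoters (61.1%) and in 4 of the 6 in the inner cluster (66.7%). Over all promoters and all clusters it was lower in 50.6% and 52.1% of the same comparisons. The times of a gene and genotype share the same samples at rest, so these comparisons are linked. Without WT sample 20 at rest the number lower fell from 15 to 11 of the 24. The groups failed to overlap in 0 of the 24, where they did so in 0.468% of the comparisons of all promoters and 0.491% of those of all clusters, and the lowest exact p was the 0.0952 of Mef2a. For untied values the smallest p possible was 0.00794 with 5 samples against 5, 0.00216 with 6 against 5 and 0.00126 with 7 against 5. Values tied at 0% raise these limits. In the Tfam promoter 4 of 5 WT and 3 of 5 mD3AKO samples at rest were at 0%, as were 3 of 5 mD3AKO samples in Mef2a. A fall from rest could not have reached 0.05 in these groups, whereas the design could have passed it in the others. At 60 min against rest and at 30 against 10 min, the comparisons within a set of sample numbers, the largest difference was that of Tfam in WT from 10 to 30 min, 3.70 points (SE 2.48, exact p = 0.167).

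The same comparisons were made with edgeR's quasi-likelihood test on methylated and unmethylated counts, fitted on all promoters, gene bodies, clusters and single CpGs, with Benjamini-Hochberg adjustment over all features of a kind. A feature was called at an adjusted p under 0.05. For time, 0 of the 3 member promoters, 0 of the 2 gene bodies, 0 of the 4 clusters and 0 of the 34 CpGs were called. The background was the same: 0% of 9761 promoters, 0% of 12391 gene bodies, 0% of 51038 clusters and 0% of 205304 CpGs were called for time. At an unadjusted p under 0.05 there were 356 promoters, 492 gene bodies, 1453 clusters and 6905 CpGs, or 3.65%, 3.97%, 2.85% and 3.36%, and of the members none of the promoters, bodies or clusters and 3 of the 34 CpGs. The promoters of Mef2a, Tfam and Cs each had an adjusted p of 1. The other models called no member either, while over all promoters the likelihood ratio test called 37 for time, the quasi-binomial model 2 and limma 3.

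Within a genotype, 10, 30 and 60 min were each tested against rest, and again 0 members and 0% of promoters and gene bodies were called by edgeR's quasi-likelihood test. Without adjustment 315 to 393 promoters and 410 to 550 gene bodies were under 0.05 in a comparison, and no member was. The likelihood ratio test called at most 5 promoters and 55 to 129 gene bodies, none of them a member. Of the members the lowest unadjusted p at promoters was that of Tfam at 30 min in WT (log2 odds ratio 2.65, SE 1.40, adjusted p = 1). From 10 to 30 min in WT the Tfam promoter had a log2 odds ratio of 3.47 (SE 1.45, adjusted p = 1 in edgeR's quasi-likelihood test, under 0.05 without adjustment), which rests on samples 32 and 38. For the genotype by time interaction 0 members were called, beside 0% of promoters, gene bodies, clusters and CpGs, with 295, 416, 1394 and 5849 at an unadjusted p under 0.05. None of the 3 member promoters was under 0.05 without adjustment, and 2 of the 34 member CpGs were (67372939 in Mef2a and 71229994 in Tfam), beside 2.85% of all CpGs. Each of these promoters and CpGs had an adjusted p of 1.

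At single CpGs, the 3 members with the lowest p for time were, in this order, Cs at 128338094 (360 bp downstream of the start), Tfam at 71229977 in the inner cluster and Mef2a at 67372915 (the CpG nearest its start), each with an adjusted p of 0.991 in edgeR. The Cs CpG was at 1.64% ± 2.55 (SD, n = 5) at rest in WT, 0.0909% ± 0.203 (SD, n = 5) at 10 min and 0% at 30 and 60 min. Without WT sample 1, which was at 6.09%, the mean at rest was 0.523%. In mD3AKO the means of the Cs CpG were 0.470% at rest and 0.238%, 0% and 0.312% at the later times. The Tfam CpG was at 100% in each of the 10 samples at rest of both genotypes, with 17 to 94 calls, and at 60 min its mean was 91.0% ± 13.8 (SD, n = 6) for mD3AKO and 83.6% ± 21.4 (SD, n = 6) for WT. Of the Mef2a CpG, the mean was 2.03% ± 4.19 (SD, n = 5) at 10 min in mD3AKO and at most 0.285% in every other group, with a highest sample at 9.51%, without which the mean was 0.159%. None of these passed the adjustment. Each of these 3 CpGs had a group at 0% or at 100%, which has no finite log odds, so the p does not measure the size of a difference. The CpG nearest the start was 71237709 in Tfam and 128338048 in Cs, with 0.367% and 0.222% in mD3AKO and 1.06% and 1.17% in WT.

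The deletion of Dnmt3a was compared in the same regions over all times. In the Tfam promoter, WT samples ran from 0% over a median of 0% to 13.0% and mD3AKO samples from 0% over 0% to 1.19%. A methylated call was present in 7 of 21 WT and 4 of 23 mD3AKO samples. The mean of mD3AKO, 0.147% ± 0.352 (SD, n = 23), differed from that of WT, 1.07% ± 2.96 (SD, n = 21), by -0.928 points (SE 0.651, permutation test within times, two-sided, p = 0.0765). That value depends on WT samples at 30 min: leaving out samples one at a time moved it from -0.333 to -0.982 points, with permutation p = 0.0441 and 0.0448 without samples 31 and 37, both of them at 0%.

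In the Mef2a promoter the WT samples ran from 0% over 0.390% to 2.27% and the mD3AKO samples from 0% over 0.261% to 1.52%. The difference of the means was -0.133 points (SE 0.170, permutation p = 0.448). In Cs they ran from 0% over 0.305% to 3.86% and from 0% over 0.225% to 2.52%, with a difference of -0.304 points (SE 0.266, permutation p = 0.260). In the inner cluster of Tfam they ran from 71.8% over 80.4% to 97.4% and from 73.8% over 83.5% to 89.2%, and the difference was 0.564 points (SE 1.46, permutation p = 0.709). The genotypes overlapped in each of these regions, and none of the differences was larger than the spread between samples. Leaving out samples one at a time moved the difference from -0.182 to -0.0482 points in Mef2a, from -0.398 to -0.149 points in Cs and from 0.0681 to 1.35 points in the inner cluster.

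For genotype the edgeR test called 0 of the 3 member promoters, where it called 77 of 9761 promoters (0.789%). It called 0 of 2 gene bodies, where the background was 173 of 12391 (1.4%), 0 of 4 clusters, where it was 556 of 51038 (1.09%), and 0 of 34 CpGs, where it was 584 of 205304 (0.284%). At these background shares fewer than 1 of so few features would be called, so the counts of 0 do not set the members apart. The log2 odds ratio of mD3AKO over WT was -0.87 (SE 0.56, adjusted p = 0.788) in the Tfam promoter, -0.66 (SE 0.68, adjusted p = 0.942) in Mef2a and -0.31 (SE 0.74, adjusted p = 1) in Cs. In the Tfam promoter the mD3AKO group at 60 min had 0 of 720 calls methylated, and such a group has no finite log odds. The ratio and SE of Tfam therefore do not measure the size of its difference. Over all samples 6 of 3780 calls were methylated there in mD3AKO and 42 of 4043 in WT. At an unadjusted p under 0.05 there were none of the member promoters, beside 794 promoters (8.13%) in all. The likelihood ratio test, the quasi-binomial model and limma called 165, 180 and 133 promoters and no member.

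Single CpGs of these promoters are mostly too sparse for that test. In 27 of the 34 member CpGs at least 1 of the 8 groups had no methylated call. Of these, 23 had a p over 0.99 for genotype, 11 for time and 7 for the interaction. A group without a methylated call has no finite log odds, so these p-values say nothing of the size of a difference. Over all CpGs 53.8% had such a group. A group at 100% has no finite log odds either, and the count of 27 leaves such groups out. The Tfam CpG at 71229977 was at 100% in both groups at rest, and that at 71229994 in WT at rest and 10 min. The CpGs named above for the interaction also had a group at 0% or 100%. The quasi-binomial model and limma called 0 of 34 member CpGs as well, with 1192 and 1459 called of 205304. The member CpG with the lowest p for genotype was Cs at 128338080 (adjusted p = 0.514 in edgeR). It had no methylated call in the 21 WT samples and a mean of 0.207% ± 0.457 (SD, n = 23) in mD3AKO, with a highest sample at 1.60%. In Mef2a it was the CpG at 67372964 (adjusted p = 1 in edgeR), with 1.70% ± 6.51 (SD, n = 21) in WT, of which 1 sample was at 29.9%, and 0.674% ± 1.84 (SD, n = 23) in mD3AKO.

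The pathway around the members was covered by a list of 79 other genes: partners and co-regulators of PGC-1α, the transcription and replication of mitochondrial DNA, the MEF2 family and its signals, pyruvate dehydrogenase and its kinases, and the citric acid cycle. Of these, 54 had a measured promoter and 63 a measured gene body. For time 0 of the 54 promoters and 0 of the 63 gene bodies were called, beside 0% of all promoters and gene bodies. None had an unadjusted p under 0.05, beside 3.65% of all promoters and 3.97% of all gene bodies. The lowest at promoters was that of Camk2g, a kinase that reads calcium signals (adjusted p = 1). Among the next lowest at promoters or gene bodies were Dlat, a subunit of pyruvate dehydrogenase (promoter), Sdhb, a subunit of succinate dehydrogenase (promoter and gene body), and Fh1, fumarate hydratase (gene body). Camk2g, Dlat, Sdhb and Fh1 had group means of at most 1.39%. In WT the median difference between exercised and rest was 0.0621 points over the 54 promoters and 0.0457 points over all promoters. In mD3AKO it was -0.0907 and 0.00132 points. Promoters lower than at rest made up 44.4% of the list and 46.4% of all promoters in WT, and 61.1% and 49.5% in mD3AKO. Beside these medians, Mef2a differed by 0.296 points in WT and 0.0567 in mD3AKO, Tfam by 0.948 and -0.399, and Cs by -0.634 and -0.138.

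For genotype 0 of the 54 promoters of the list were called, beside 0.789% of all promoters. At an unadjusted p under 0.05 there were 7, beside 8.13% of all promoters. They were led by Polg, the polymerase of mitochondrial DNA (adjusted p = 0.120 in edgeR). Hdac5, a deacetylase that binds MEF2 factors (adjusted p = 0.310), and Esrrg, an orphan nuclear receptor of the estrogen-related family (adjusted p = 0.317), followed. The levels of Polg and Hdac5 were 0.310% and 0.300% in WT and 0.889% and 0.652% in mD3AKO, and those of Esrrg 5.23% and 3.13%. Of the 63 gene bodies, 3 were called and all were lower in mD3AKO, which is 4.76% beside 1.4% of all gene bodies. Among them were Mef2c and Mef2d, which encode factors of the same family as Mef2a. The gene body of Mef2c was represented by 5 CpGs (chromosome 13, 83518183 to 83518259). Its level ran from 1.12% over a median of 9.42% to 51.9% in WT and from 0% over 1.68% to 6.68% in mD3AKO. The means were 2.10% ± 2.05 (SD, n = 23) in mD3AKO and 16.3% ± 14.1 (SD, n = 21) in WT, with all 23 mD3AKO samples below the WT mean (log2 odds ratio -3.17, SE 0.54, adjusted p = 0.000334 in edgeR).

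Mef2d was nearly unmethylated at its 18 CpGs, with 0.951% ± 0.711 (SD, n = 23) in mD3AKO and 2.23% ± 1.09 (SD, n = 21) in WT (log2 odds ratio -1.48, SE 0.39, adjusted p = 0.0409). At a coverage minimum of 20 Mef2d was not called. Its log2 odds ratio there was -0.61, but the fit gave no SE, so that result does not show whether the difference held. The third was Esrrb, a relative of Esrrg, with 20.6% ± 5.00 (SD, n = 21) and 15.0% ± 2.70 (SD, n = 23) over 42 CpGs (log2 odds ratio -0.55, SE 0.12, adjusted p = 0.00482 in the quasi-likelihood test and 0.537 in the likelihood ratio test). For Mef2c, Mef2d and Esrrb the adjusted p of the time effect was 1. Whether Mef2a, which had no measured CpG in its body, differed like Mef2c and Mef2d was not measured.

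Marker genes of cell types were read as methylation levels, and RNA was not analysed here. Of 8 myofibre markers, 2 had a measured promoter, with group means of 1.63% to 12.2%. Of 6 immune markers, 2 had one, at 56.5% to 66.2%. The single measured promoters of the endothelial and fibroblast markers were at 0.814% to 1.93% and at 0% to 3.50%. The one of the satellite cell markers, Pax7, was at 15.4% to 18.8% in the WT groups and at 7.69% to 12.2% in the mD3AKO groups. The study itself reported this promoter as less methylated in mD3AKO muscle. The part of cell composition in the levels of Mef2a, Tfam and Cs was not tested.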

How the data were processed

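DNA methylation in soleus was measured by RRBS with 75-base single-end reads. Per the methods and the submitters' processing notes, the authors trimmed with Trim Galore 0.4.0 and cutadapt 1.9.1, aligned to mm10 with Bismark 0.18.1, summed both strands, and required a coverage of 8 at a CpG across all samples. The deposited table gives counts, methylated and unmethylated, not normalized, for autosomal CpGs, with the authors' promoter (3000 bp upstream to 1000 bp downstream), gene body and cluster (gaps of at most 100 bp) assignments. RRBS reads hold no molecular identifiers, so calls overstate independent molecules. Of 50 samples, 44 had counts and 6 were not used here. Groups and sexes came from the labels.

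Counts were summed per region, and levels are in percent. Differences from rest were tested by exact permutation and genotype by 100000 permutations within times, two-sided. All features were fitted in edgeR 4.0.16 (quasi-likelihood, a coefficient per sample, a mean per group, common dispersion without trend, taken from every 10th feature for single CpGs), with genotype as the mean of 4 groups against 4. The script was tested on simulated data, with changes set only in promoters of intermediate level. That test does not cover levels as low as those of the member promoters. Intervals are Clopper-Pearson (95%), and the limit for a count of 0 is 3 calls. Alternatives were the likelihood ratio test, a quasi-binomial model (pseudocount 0.5), limma 3.58.1 (pseudocount 1), a coverage minimum of 20, sex, an unweighted mean, a shorter promoter and leaving out each sample. The model without interaction and the last pair of models at single CpGs were added after seeing the data.

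The members, the pathway list and the tests were chosen with earlier results of these data known. Named CpGs are, per gene and region, those with the lowest p for time and for genotype and the one nearest the start. Named pathway genes are those called and, per region, the 3 with the lowest p for time and for genotype, and genes of like pattern are the 3 with the highest correlation to a member at 5% or more. The 1 sample whose title and genotype label differ was among those not used. Values of some single genes of the pathway list are not reported here.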

Additional observations from a re-analysis of the deposited data

Results flagged for a closer look

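In 11 of the 31 groups of samples examined (a member region in a group of genotype and time), the highest sample stood apart from the rest of its group by more than Dixon's 95% critical value. Chance flags about 1 in 20 groups of normally spread values, and levels that are mostly 0% are not spread so. All 11 were promoters, and in 7 of them all methylated calls of the sample fell on 1 CpG. That was bound to be so where the sample had 1 methylated call. In Mef2a they were WT sample 47 at 10 min (2.27%, 41 of 1805 calls, 95% interval 1.63 to 3.07, others at most 0.390%), WT sample 25 at 60 min (1.68%, others at most 0.695%) and mD3AKO sample 3 at 60 min (1.52%, others at most 0.431%, calls on 5 CpGs). In Tfam, where all others of each group were at 0%, they were WT sample 14 at rest (2.04%, 3 of 147 calls, 95% interval 0.423 to 5.85), WT sample 47 at 10 min (0.478%, 1 of 209 calls), mD3AKO sample 26 at 10 min (0.522%, 2 of 383 calls) and mD3AKO sample 43 at 30 min (0.546%, 1 of 183 calls). In Cs they were WT sample 31 at 30 min (1.01%, others at most 0.153%), WT sample 9 at 60 min (3.24%, 35 of 1079 calls, 95% interval 2.27 to 4.48, others at most 0.327%), mD3AKO sample 39 at 10 min (1.05%, others at most 0.279%) and mD3AKO sample 43 at 30 min (0.957%, others at most 0.247%). Samples 47 and 43 stood apart in 2 regions each.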

How the results depend on the processing

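No paired analysis was possible because the groups share no replicate numbers. The members called stayed at 0 for time, within each genotype, for genotype and for the interaction under the likelihood ratio test, the quasi-binomial model, limma, a coverage minimum of 20, sex as a covariate, the model without interaction and each left-out sample, as far as each was run (leave-one-out from 0 to 0 for promoters and gene bodies). Leave-one-out fits used the members and every 20th feature at the dispersion of all samples, and were not run for clusters, single CpGs or the pathway list. No sample lay nearer the other genotype, so none was dropped for that. The Tfam promoter has no value at a coverage of 20 or in a promoter of 500 bp each side.

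Of the differences from rest, the number at an exact p under 0.05 moved from 0 to 1 (Cs in mD3AKO at 10 min, -0.417 points, p = 0.0159) at a coverage minimum of 20 and ran from 0 to 1 over left-out samples. The share lower than rest ran from 45.8% to 66.7% over left-out samples. The number of genotype differences at a permutation p under 0.05 ran from 0 to 1 over left-out samples, the Tfam promoter at -0.982 points without WT sample 31 or 37. Direction reversed in differences that were within the spread: the Cs promoter log2 odds ratio for genotype (0.30 at a coverage of 20, and -0.50 to 0.077 over left-out samples) and its level (0.0371 points at a coverage of 20), the Mef2a level for genotype in males (0.0670 points), the inner cluster level for genotype as an unweighted mean (-0.504 points), and the Tfam gene body after exercise in WT (0.015 in the quasi-binomial model, and -0.24 to 0.12 over left-out samples, above 0 without samples 13, 16, 20 or 32, at 0.12, 0.01, 0.07 and 0.02). For the pathway list, genotype calls at promoters moved from 0 to 1 under the likelihood ratio test (Polg) and the quasi-binomial model (Esrrg), and interaction calls at gene bodies from 0 to 3 under the likelihood ratio test (Dlst and Idh3b among them). Of all promoters these models called 1.69% and 1.84% for genotype. Of all gene bodies the likelihood ratio test called 3.38% for the interaction. Mef2d was not called at a coverage of 20, where the fit gave no SE and so does not show whether its difference held. The cause of these changes was not tested.

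Over all features, counts moved by over 1.5 times in several models. For genotype the likelihood ratio test called 165 promoters, 464 gene bodies, 1442 clusters and 1780 CpGs, the quasi-binomial model 180, 292, 1367 and 1192, and limma 133, 895 and 1459 promoters, clusters and CpGs. For time the likelihood ratio test called 37, 528, 376 and 12, the quasi-binomial model 2 promoters and 15 CpGs, limma 3 promoters and 1 gene body, and the model without interaction 1 gene body. For the interaction the likelihood ratio test called 10, 419, 379 and 4, and limma 1 cluster and 1 CpG. Coverage of 27 to 383 calls limits the Tfam promoter.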

Other observations

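No CpG of Pdk4 was measured, but 1 CpG 8201 bp upstream of it was (chromosome 6, position 5504510). Its level was intermediate and spread widely, from 7.69% over a median of 66.5% to 100% in WT and from 8.33% over 62.8% to 96.7% in mD3AKO, with 11 to 353 calls per sample. The mean of mD3AKO, 59.5% ± 22.6 (SD, n = 23), differed from that of WT, 69.9% ± 19.3 (SD, n = 21), by -10.4 points (SE 6.31, permutation test within times, two-sided, p = 0.102). Against rest, the difference was 16.9 points at 10 min in WT (exact permutation p = 0.119) and -21.0 points at 30 min in mD3AKO (exact permutation p = 0.135), and the other comparisons with rest had a larger p. Whether this CpG has any bearing on Pdk4 was not tested.

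Of the member promoters and gene bodies, that of the Tfam gene body was the one level of at least 5%. Over the 44 samples its level had the highest Pearson correlation, across all other gene bodies, with those of Stra6l (r = 0.605), Stra6 (r = 0.581) and Olfr322 (r = 0.559). These are the highest of all gene bodies by choice, and the level of Tfam moves with the share of calls from its promoter CpGs.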
